A study of Mus musculus with 12 samples.

Results

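Tuft cell markers were described as 10 genes, Pou2f3, Gfi1b, Trpm5, Dclk1, Sh2d6, Avil, Alox5, Alox5ap, Il25 and Il17rb, of 19938 genes measured. The members were chosen by symbol as known markers of intestinal tuft cells, and each was read by the only probe set mapped to it alone. The choice uses no threshold on measured values, but earlier results of these data were known when it was made. In 5 comparisons of genotype and tissue labels, 0 of the 10 members passed the test over all genes. The clearest pattern was in Avil, which encodes advillin, an actin-binding protein of the villin family. Avil was lower in all 3 KO arrays labelled tumor than in both KO arrays labelled adjacent, as were 14.1% of all genes. Avil passed in this comparison where arrays of weak signal were left out or where array weights were used. With array weights, 5.23% of all genes passed, and in the fit on the 5 KO arrays alone 1.85%. In that fit on the KO arrays, the call of Avil was lost on leaving out any of 3 of the arrays.

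Tuft cells are rare chemosensory cells of the intestinal epithelium, with a tuft of long microvilli on the side of the lumen. They sense luminal metabolites through receptors that open the cation channel TRPM5, and they release interleukin 25 (IL-25), leukotrienes and acetylcholine. IL-25 activates group 2 innate lymphoid cells, whose IL-13 acts back on the epithelium and increases tuft and goblet cells. The transcription factor POU2F3 is required for tuft cells to form. Dclk1 marks tuft cells in normal mouse intestine and is also expressed in cells of intestinal adenomas.

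RNA came from epithelium that was laser-microdissected out of stained intestinal sections of male C57BL6/J APCmin/+ mice of 25 weeks, in which loss of the remaining Apc copy gives adenomas. FSPCre-PPARB -/- mice, called KO here, carried Cre under a promoter of fibroblast-specific protein, which deletes Ppard, the gene of the nuclear receptor PPAR-beta/delta, and their PPARB flox/flox littermates, called floxed here, did not. The APCmin/+ background was common to all groups, and the promoter of the Cre is named for fibroblasts, not for the epithelium that was sampled. The groups were KO tumor (3 arrays), floxed tumor (3 arrays), KO adjacent (2 arrays) and floxed adjacent (2 arrays), and a further 2 adjacent arrays carried conflicting genotype labels and entered no comparison. The title of conflict array 1 says KO and its genotype characteristic says floxed, and conflict array 2 has these exchanged. The labels tie no array to an animal, so p-values measure only the spread between these samples, which may be technical. Precision is limited by how few arrays each group holds.

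Several properties of the arrays bear on all genes. The 4 arrays floxed tumor 1 and 2 and floxed adjacent 1 and 2 had a median correlation with the other arrays under 0.7 and are called weak-signal arrays. The SD of log2 values within an array was 1.04 to 1.09 in them, against 1.49 to 1.57 in the other 8. Without them, 1 floxed tumor array and 0 floxed adjacent arrays remained. Ppard was higher in each KO tumor array (6.06, 6.07 and 6.50) than in each floxed tumor array (4.95, 4.48 and 5.79), as were 13.2% of all genes. The log2 difference was 1.14 ± 0.33 (SE) with a limma adjusted p of 0.0991. This is opposite to a deletion of Ppard, though the Cre is named for fibroblasts and epithelium was sampled. Ppard was 5.76 and 5.51 in KO adjacent arrays, against 5.09 and 4.61 in floxed adjacent arrays. Of all genes, 32.1% were likewise higher there without overlap. The 4 weak-signal arrays held the lowest Ppard values of all arrays. Floxed tumor array 3, which is not a weak-signal array, held 5.79, above both KO adjacent arrays. Conflict arrays 1 and 2 held 5.76 and 6.13. Genotype and signal therefore cannot be told apart for Ppard. Whether the Ppard probe set covers the deleted exons was not tested. Markers of tissue also went against the labels within the KO arrays. The mean of 18 Wnt target and adenoma genes was 4.68 to 4.70 in KO tumor arrays and 5.40 to 5.70 in KO adjacent arrays. The mean of 19 enterocyte genes was 7.26 to 7.96 in KO tumor arrays and 5.66 to 6.50 in KO adjacent arrays. In the floxed arrays, the enterocyte mean was also higher in tumor (5.61 to 8.14) than in adjacent arrays (4.75 to 5.56). The Wnt target and adenoma mean was 4.46 to 4.60 in floxed tumor and 4.46 to 4.63 in floxed adjacent arrays. Tumor, adjacent, KO and floxed therefore name labels throughout.

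Promoter sequences are shown for Avil and Dclk1, the members with the largest log2 differences in the adjacent arrays. RefSeq promoter windows (GRCm38.p6, 250 bases before to 50 after a start of transcription) were given for 7 of the 10 members, in 8 windows, and Pou2f3, Il25 and Alox5ap have no entry. The windows are on the plus strand, at chr10:127000459-127000758 for Avil and at chr3:55242114-55242413 and chr3:55461478-55461777 for the starts of Dclk1. Capitals mark the 7-letter core ATGCAAA of the octamer motif of POU class 2 factors, on either strand (TTTGCAT on the minus strand), and the Dclk1 windows hold none.
Avil: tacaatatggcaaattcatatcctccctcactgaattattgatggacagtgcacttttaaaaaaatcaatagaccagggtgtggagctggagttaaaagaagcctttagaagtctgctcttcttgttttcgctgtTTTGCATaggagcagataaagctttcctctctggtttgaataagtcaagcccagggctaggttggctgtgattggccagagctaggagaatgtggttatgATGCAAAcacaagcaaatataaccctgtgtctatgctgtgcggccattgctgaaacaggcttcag
Dclk1, upstream start: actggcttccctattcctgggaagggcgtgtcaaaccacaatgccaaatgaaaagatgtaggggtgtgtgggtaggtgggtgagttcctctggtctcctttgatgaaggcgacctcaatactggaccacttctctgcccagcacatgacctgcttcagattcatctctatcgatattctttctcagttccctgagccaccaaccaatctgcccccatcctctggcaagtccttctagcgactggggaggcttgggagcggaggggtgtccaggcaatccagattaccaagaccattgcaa
Dclk1, downstream start: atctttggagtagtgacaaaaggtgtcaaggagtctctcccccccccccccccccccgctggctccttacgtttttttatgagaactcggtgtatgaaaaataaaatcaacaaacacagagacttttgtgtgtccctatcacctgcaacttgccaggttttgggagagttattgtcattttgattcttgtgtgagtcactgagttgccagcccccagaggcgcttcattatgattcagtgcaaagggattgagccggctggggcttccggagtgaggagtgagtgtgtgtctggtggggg
The full octamer ATGCAAAT (ATTTGCAT on the minus strand) was found in 0 of the 8 member windows and in 1.74% of all 32851 RefSeq promoter windows. Its 7-letter core, which lies within the octamer and was searched after the Avil window had been read, was found in the Avil window on the minus strand at position -115 and on the plus strand at position -15 from the start of transcription. It was found in 1 of the 8 member windows and in 4.63% of all windows. These matches describe letters, and no binding was measured.

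Of the 10 members, 9 stayed on all 12 arrays below the 95th percentile of the unnamed probe sets of the same array, which ran from 6.75 to 7.48 (log2). The exception was Avil on conflict array 1, with 7.35 against 7.34. Avil and Gfi1b lay above the median of unnamed probe sets on 12 of 12 arrays. Trpm5, Pou2f3, Il25, Sh2d6 and Alox5 did so on 11, Il17rb on 10, Dclk1 on 9 and Alox5ap on 8. That median was 3.92 to 3.94 in KO arrays, and 4.24 to 4.39 in weak-signal arrays, against 3.85 in floxed tumor array 3. Above that median, Avil lay by 2.38 and 2.41 in KO adjacent arrays and by 1.45 to 1.85 in KO tumor arrays, and Gfi1b by 1.63 to 1.70 in KO tumor arrays. The table held no detection call, so these levels do not tell whether a sample contained tuft cells. In bulk samples, fewer cells of a type and less RNA per cell cannot be told apart.

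**Figure D1:**
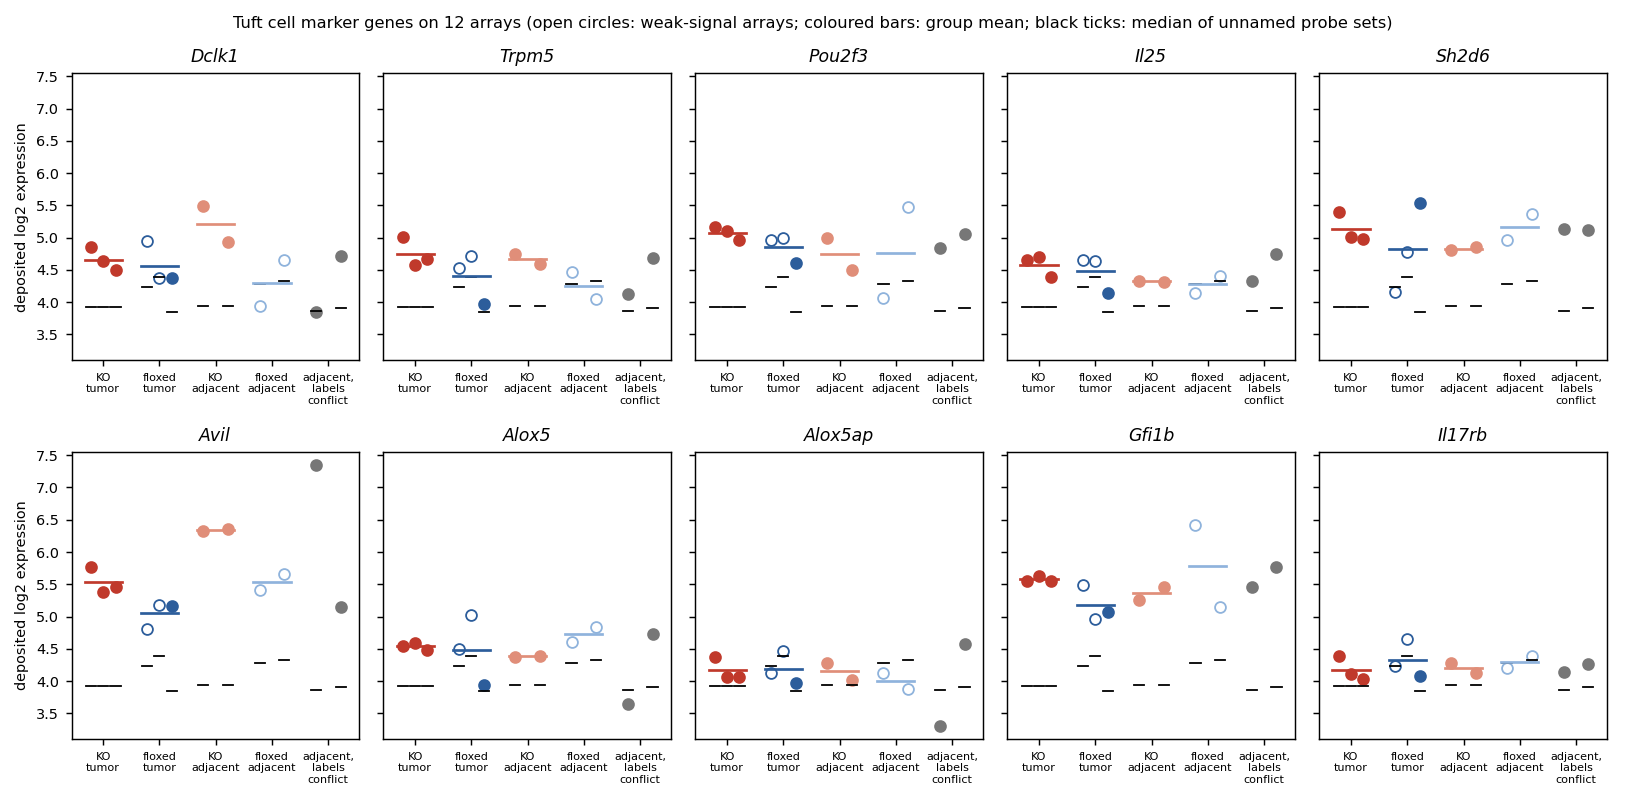
Deposited log2 expression of the 10 members (y axis, log2 units) on each of 12 arrays, grouped by label (x axis). Each circle is 1 array, open circles are the 4 weak-signal arrays, coloured bars are group means and black ticks are the median of unnamed probe sets on that array. Avil was lower in the 3 KO tumor arrays (5.38 to 5.77) than in the 2 KO adjacent arrays (6.32 and 6.36). Of the 10 members, 6 do not overlap between those 2 groups, 4 higher and 2 lower in KO tumor. The same holds for 32.1% of all genes, 17.9% higher and 14.1% lower.

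Among the transcription factors, Pou2f3 read 5.16, 5.10 and 4.97 in KO tumor arrays 1 to 3 and 4.96, 4.99 and 4.61 in the floxed tumor arrays. Beside the tumor it was 4.997 and 4.50 in KO adjacent arrays, against 4.06 and 5.47 in floxed adjacent arrays. The 2 floxed adjacent arrays thus gave the lowest and the highest Pou2f3 value of all 12 arrays, and neither genotype nor tissue separated them. Gfi1b, a zinc finger repressor that is also expressed in the megakaryocyte and erythroid lineages, read 5.56, 5.64 and 5.55 in KO tumor arrays and 5.49, 4.96 and 5.07 in floxed tumor arrays. It was 5.26 and 5.47 in KO adjacent arrays, against 6.41 and 5.14 in floxed adjacent arrays, where 1 weak-signal array held the highest value. All 3 KO tumor arrays were above all 3 floxed tumor arrays in Gfi1b, the nearest pair differing by less than the spread among the floxed arrays. The conflict arrays 1 and 2 held 4.85 and 5.06 for Pou2f3 and 5.46 and 5.77 for Gfi1b.

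Trpm5, the calcium-activated cation channel at the end of taste-type signalling, read 5.01, 4.57 and 4.67 in KO tumor arrays and 4.54, 4.72 and 3.98 in floxed tumor arrays. It was 4.74 and 4.59 in KO adjacent arrays, against 4.47 and 4.04 in floxed adjacent arrays. The adjacent groups did not overlap and the tumor groups did, and conflict arrays 1 and 2 held 4.13 and 4.68. Dclk1, a microtubule-associated kinase, read 4.86, 4.63 and 4.49 in KO tumor arrays and 4.95, 4.37 and 4.38 in floxed tumor arrays. It was 5.49 and 4.93 in KO adjacent arrays, against 3.94 and 4.65 in floxed adjacent arrays, and 3.84 and 4.71 in the conflict arrays. KO adjacent arrays were above all other groups except for floxed tumor array 1, which overlapped them, and conflict array 1 gave the lowest Dclk1 value of all.

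Sh2d6, which encodes a protein with an SH2 domain, read 5.40, 5.01 and 4.97 in KO tumor arrays and 4.16, 4.78 and 5.54 in floxed tumor arrays. It was 4.80 and 4.85 in KO adjacent arrays, against 4.97 and 5.37 in floxed adjacent arrays. The floxed tumor arrays held the lowest and the highest value of this gene, and the conflict arrays held 5.13 and 5.12. Avil read 5.77, 5.38 and 5.46 in KO tumor arrays and 4.81, 5.18 and 5.17 in floxed tumor arrays. It was 6.32 and 6.36 in KO adjacent arrays, against 5.40 and 5.66 in floxed adjacent arrays, and 7.35 and 5.15 in conflict arrays 1 and 2. Avil was the member with the widest range over the arrays, 2.54 log2 units, and the conflict arrays alone covered most of it.

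Of the leukotriene genes, Alox5, a lipoxygenase, read 4.54, 4.59 and 4.49 in KO tumor arrays and 4.50, 5.03 and 3.93 in floxed tumor arrays. It was 4.38 and 4.40 in KO adjacent arrays, against 4.61 and 4.84 in floxed adjacent arrays. Its activating protein, Alox5ap, ranged from 4.06 to 4.38 in KO tumor arrays and from 3.97 to 4.47 in floxed tumor arrays, and was 4.29 and 4.01 in KO adjacent arrays, against 4.12 and 3.88 in floxed adjacent arrays. Conflict array 1 gave the lowest value of each, 3.64 for Alox5 and 3.31 for Alox5ap. Il25 read 4.65, 4.70 and 4.38 in KO tumor arrays and 4.65, 4.64 and 4.14 in floxed tumor arrays, with 4.33 and 4.32 in KO adjacent arrays, against 4.14 and 4.41 in floxed adjacent arrays. Il17rb, a subunit of the IL-25 receptor, ranged from 4.04 to 4.38 in KO tumor and from 4.09 to 4.66 in floxed tumor arrays, and was 4.29 and 4.12 in KO adjacent arrays, against 4.20 and 4.39 in floxed adjacent arrays. Among the members, Il17rb and Il25 varied least over the 12 arrays, with SDs of 0.173 and 0.215 log2 units. No separation of genotypes was seen in Alox5ap, Il25 or Il17rb.

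The comparison named in the title of the series set KO tumor against floxed tumor epithelium. It had 0 of 10 members called, beside 1.08% of all genes (215 genes, and 782 when replicates are blocked by number). All 3 KO arrays were above all 3 floxed arrays for 2 members, Avil and Gfi1b, beside 13.2% of all genes in that direction and 27% in either. Avil averaged 5.54 ± 0.21 in KO tumor and 5.05 ± 0.21 in floxed tumor arrays (SD, n = 3 each), a log2 difference of 0.49 ± 0.23 (SE) with a limma adjusted p of 0.231. Gfi1b averaged 5.58 ± 0.05 in KO tumor and 5.17 ± 0.28 in floxed tumor arrays, a log2 difference of 0.41 ± 0.32 (SE) with a limma adjusted p of 0.463. After quantile normalization the log2 differences were 0.27 for Avil and 0.14 for Gfi1b, with limma adjusted p-values of 0.678 and 0.902. The log2 differences of the 10 members ran from -0.15 to 0.49 with a median of 0.16, against -0.01 over all genes. An unadjusted p under 0.05 was reached by 0 members, beside 23% of all genes. The 95% intervals of the 10 log2 differences together spanned -0.67 to 1.11. Without the weak-signal arrays, which leaves floxed tumor array 3 alone on its side and assumes that it varies like the other groups, 2 members passed in limma, Trpm5 (0.77 ± 0.21 on the log2 scale, SE, adjusted p 0.0360) and Alox5 (0.61 ± 0.16, adjusted p 0.0344), beside 19.4% of all genes (3866 genes).

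The same genotypes in adjacent epithelium had 0 of 10 members called, beside 6.06% of all genes. KO and floxed adjacent arrays did not overlap for 5 members, 3 higher and 2 lower, beside 67.1% of all genes, 32.1% higher and 35% lower. Dclk1 averaged 5.21 ± 0.40 in KO adjacent and 4.30 ± 0.51 in floxed adjacent arrays (SD, n = 2 each), a log2 difference of 0.91 ± 0.35 (SE) with a limma adjusted p of 0.124. Avil averaged 6.34 ± 0.03 in KO adjacent and 5.53 ± 0.18 in floxed adjacent arrays, a log2 difference of 0.81 ± 0.28 (SE) with a limma adjusted p of 0.0948. For Dclk1 and Avil the unadjusted p was under 0.05, as it was for 28.2% of all genes. The log2 difference was 0.41 for Trpm5, -0.34 for Sh2d6 and -0.34 for Alox5, the other members whose arrays did not overlap, with limma adjusted p-values of 0.423, 0.602 and 0.539. The median over the members was 0.02, against -0.04 over all genes. After quantile normalization the log2 difference of Avil was 0.23 (adjusted p 0.738) and that of Sh2d6 was -0.70 (adjusted p 0.397). That of Dclk1 was 0.55 without floxed adjacent array 1 and 0.32 with the conflict arrays placed by title. Without floxed adjacent array 1 or 2, Trpm5 gave 0.62 or 0.20, Sh2d6 -0.54 or -0.14, and Alox5 -0.45 or -0.22. With the conflict arrays placed by title, Trpm5 gave 0.09, Sh2d6 -0.22, Alox5 -0.59 and Avil 1.27. Both floxed adjacent arrays are weak-signal arrays, so genotype and signal cannot be told apart here. With the conflict arrays placed by genotype characteristic, the log2 difference of Avil turned to -0.19 and that of Alox5 to 0.14, with limma adjusted p-values of 0.831 and 0.834. Without floxed tumor array 3, which changes only the shared spread, Avil passed with a limma adjusted p of 0.0415, 1 of 10 members beside 24.6% of all genes (4903 genes).

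**Figure D2:**
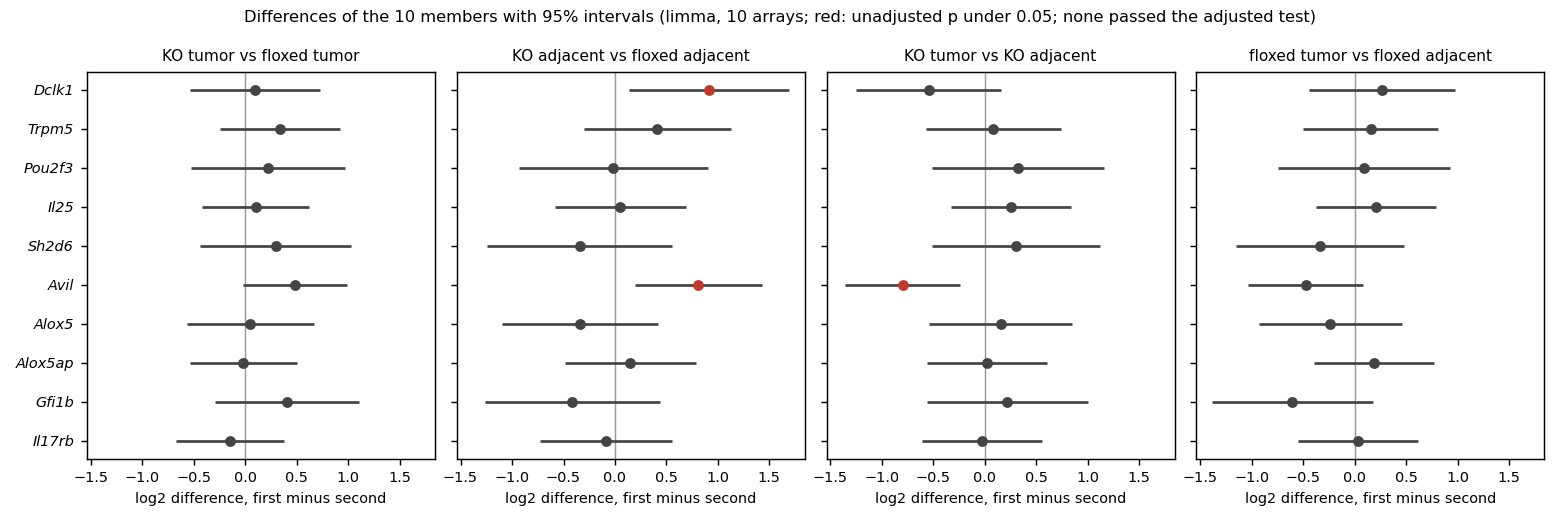
Log2 differences of the 10 members (rows) in 4 comparisons (panels), first group minus second, as points with 95% intervals from limma on 10 arrays. Red points have an unadjusted p under 0.05, which are Dclk1 (0.91) and Avil (0.81) in KO adjacent against floxed adjacent and Avil (-0.80) in KO tumor against KO adjacent, and 0 members passed after adjustment.

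Within the KO label, all 5 arrays had high signal, and tumor could be set against adjacent epithelium without the weak-signal arrays. In the fit over 10 arrays 0 of 10 members were called, beside 0.0201% of all genes. The 3 tumor and 2 adjacent arrays did not overlap for 6 members, 4 higher and 2 lower, beside 32.1% of all genes, 17.9% higher and 14.1% lower. Avil was lower, with a mean of 5.54 ± 0.21 in KO tumor (SD, n = 3) and 6.34 ± 0.03 in KO adjacent arrays (SD, n = 2), a log2 difference of -0.80 ± 0.26 (SE) with a limma adjusted p of 1.00. Avil was the only member with an unadjusted p under 0.05, beside 2.47% of all genes. Dclk1 was also lower in every tumor array, by a log2 difference of -0.55 ± 0.32 (SE), which was -0.26 without KO adjacent array 1, -0.83 without KO adjacent array 2 and -0.09 with the conflict arrays placed by title. The 4 members higher in every tumor array were Sh2d6 (0.30), Il25 (0.25), Gfi1b (0.22) and Alox5 (0.15 on the log2 scale). With the conflict arrays placed by characteristic, Il25 gave 0.12, Gfi1b 0.08 and Alox5 0.04. Placed by title, Alox5 gave 0.40 and Sh2d6 0.20. Without KO tumor array 1 Sh2d6 gave 0.16, and without KO adjacent array 1 Gfi1b gave 0.12. Dclk1 and these 4 members each had a limma adjusted p of 1.00. The members' median difference was 0.12, against 0.04 over all genes. The KO adjacent arrays also serve in the genotype comparison of adjacent epithelium, so the high Avil and Dclk1 values of those 2 arrays enter both. With array weights, 1 of 10 members passed, Avil (-0.81, limma adjusted p 0.00377), beside 5.23% of all genes.

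A fit on the 5 KO arrays alone took its spread from them and called 1 of 10 members, beside 1.85% of all genes (368 genes, with 0.557% higher and 1.29% lower). Avil fell by 0.80 ± 0.16 on the log2 scale (SE, 95% interval -1.16 to -0.44, limma adjusted p 0.0470). Dclk1 did not pass, with a log2 difference of -0.55 ± 0.20 (SE) and a limma adjusted p of 0.255. The other 8 members had log2 differences between -0.03 and 0.32, with adjusted p-values of 0.469 to 0.977. The call of Avil did not hold in limma without KO tumor array 2 (adjusted p 0.165), KO adjacent array 1 (0.241) or KO adjacent array 2 (0.377), and held without KO tumor array 1 (0.0336) or 3 (0.0464). Adding the conflict array that is KO by title gave -1.14 (adjusted p 0.176), and adding the one that is KO by characteristic gave -0.40 (adjusted p 0.746).

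**Figure D3:**
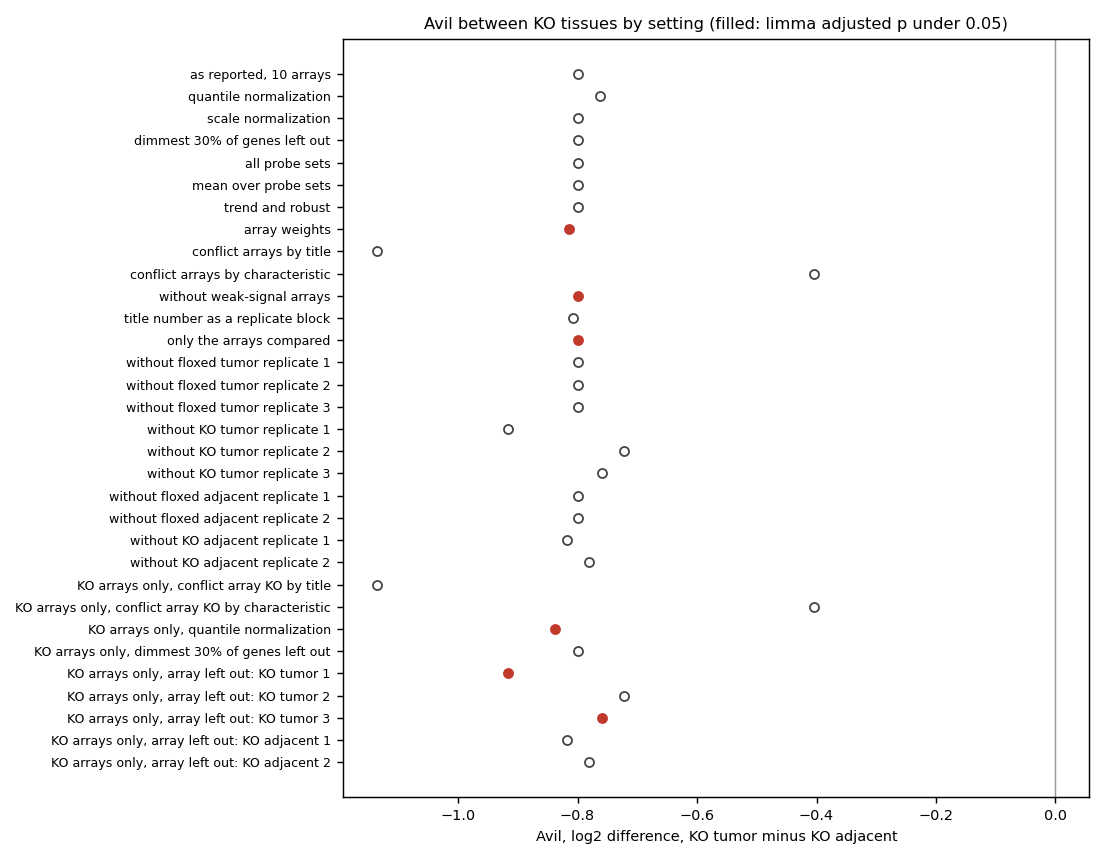
Log2 difference of Avil, KO tumor minus KO adjacent (x axis), in the fit over 10 arrays and under each alternative setting (rows, each 1 fit). Filled points have a limma adjusted p under 0.05. All values lie below 0, from -1.14 to -0.40, and the settings that add a conflict array give both ends.

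Floxed tumor against floxed adjacent epithelium called 0 of 10 members, beside 0.00502% of all genes. All arrays of this comparison except floxed tumor array 3 are weak-signal arrays. The arrays did not overlap for 1 member, Avil, beside 18.8% of all genes and 10.1% in the lower direction. Avil averaged 5.05 ± 0.21 in floxed tumor (SD, n = 3) and 5.53 ± 0.18 in floxed adjacent arrays (SD, n = 2), a log2 difference of -0.48 ± 0.26 (SE) with a limma adjusted p of 0.471. It was -0.80 after quantile normalization and -1.08 with the conflict arrays placed by characteristic. The tissue difference in Avil thus had the same sign in both genotypes, and its interaction with genotype was -0.32 ± 0.36 (log2, SE, limma adjusted p 0.926). For Dclk1 the tumor minus adjacent difference was -0.55 in KO and 0.27 in floxed arrays, an interaction of -0.82 ± 0.45 with an adjusted p of 0.824. For Gfi1b it was 0.22 in KO and -0.60 in floxed arrays, an interaction of 0.82 ± 0.50 with an adjusted p of 0.837. Interactions called 0 of 10 members and 0% of all genes in limma, and had an unadjusted p under 0.05 for 0 members and 6.42% of all genes.

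Other genes linked to tuft cells or to the circuit they act in were taken as 5 lists. These were chemosensing, eicosanoid and acetylcholine, transcription factor, structure and signalling, and type 2 immune circuit genes. The lists are not limited to tuft cells, and Clca1 and Sox9 also stand in lists of other markers. In KO tumor against floxed tumor, 0 of the 16, 13, 12, 39 and 17 genes measured in these lists were called. Over all genes 1.08% were called, and the list medians lay between -0.15 and 0.28. The smallest unadjusted p among these lists belonged to Atp2a3, an endoplasmic calcium pump, with 6.33, 5.89 and 6.17 in KO tumor and 4.03, 4.52 and 5.21 in floxed tumor arrays. Its log2 difference was 1.54, with a limma adjusted p of 0.0583. Trpm4, a cation channel related to Trpm5, differed by 0.98 (adjusted p 0.105), and Atoh1, a factor of secretory lineages, by 1.38 (adjusted p 0.105). Gnat3, the taste G protein gustducin, was 2.51, 2.41 and 2.22 in KO tumor and 3.84, 3.49 and 2.30 in floxed tumor arrays. Its high values were thus those of the weak-signal arrays, and its log2 difference of -0.83 had an adjusted p of 0.198. Each of these Gnat3 values lay below the median of unnamed probe sets on its own array. That median was 3.92 to 3.93 in KO tumor arrays, and 4.24, 4.39 and 3.85 in floxed tumor arrays 1 to 3.

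In KO adjacent against floxed adjacent, 3 of the 39 structure and signalling genes were called, all higher, and 1 of the 17 type 2 circuit genes, also higher, beside 2.91% of all genes in that direction. Cd24a, a surface glycoprotein, was 8.76 and 8.91 in KO adjacent arrays, against 4.28 and 5.76 in floxed adjacent arrays, a log2 difference of 3.82 (limma adjusted p 0.0309). Clca1, a goblet cell product induced by IL-13, was 7.95 and 6.998 in KO adjacent arrays, against 4.50 and 3.61 in floxed adjacent arrays, a log2 difference of 3.42 (adjusted p 0.0456). The other calls were Tmem176b, a membrane protein, with a log2 difference of 2.86 (adjusted p 0.00467), and Atp2a3, with 2.07 (adjusted p 0.0256). Clca1 is also one of the goblet cell markers. Markers of other cell types were called higher in the same comparison, 4 of 18 Wnt target and adenoma genes (list median 1.01), among them Notum (2.12) and Ccnd1 (2.05), and 2 of 9 goblet cell genes (list median 1.47), Agr2 (4.31) and Clca1. Of the mast cell genes 2 of 14 were called higher, Mcpt1 (2.53) and Mcpt2 (2.43), but 10 of the 14 lay below 0 (list median -0.23). Of the fibroblast and matrix genes 2 of 13 were called higher, Sparc (2.36) and Dcn (1.53), with a list median of 0.58. Of the Paneth cell genes 1 of 9 was called higher, Pla2g2a (2.18), with a list median of 0.98. Of the neutrophil genes 1 of 14 was called higher, Il1b (1.11), but 10 of the 14 lay below 0 (list median -0.15). The part of these other cell types in the calls was not tested. Again the floxed side consisted of weak-signal arrays only. The medians of the structure and signalling and type 2 circuit lists were -0.02 and -0.13. No gene of the chemosensing, eicosanoid and transcription factor lists was called there.

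In the fit on the 5 KO arrays, 0.557% of all genes rose and 1.29% fell in tumor against adjacent arrays. Of the 39 structure and signalling genes, 1 rose and 4 fell. Cd24a fell to 6.59, 6.56 and 6.63 in KO tumor arrays, against 8.76 and 8.91 in KO adjacent arrays, a log2 difference of -2.24 (limma adjusted p 0.000295). Krt18, a simple epithelial keratin, differed by -1.74 (adjusted p 0.0202), Tmem176b by -1.04 (adjusted p 0.0472) and Plk2, a polo-like kinase named here after its values were seen, by -0.72 (adjusted p 0.0392). Vil1, the brush border protein villin that enterocytes share, rose by 0.98 (adjusted p 0.0489). Among the other lists, 1 gene fell in each of eicosanoid and acetylcholine (Ptgs2, cyclooxygenase 2, -0.89, adjusted p 0.0279), transcription factors (Sox9, also a Wnt target, -0.74, adjusted p 0.0453) and type 2 circuit (Il33, an epithelial and stromal alarmin, -1.15, adjusted p 0.0249). Of the 16 chemosensing genes, 0 were called. The 5 list medians were positive, between 0.07 and 0.22, against 0.04 over all genes.

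**Figure D4:**
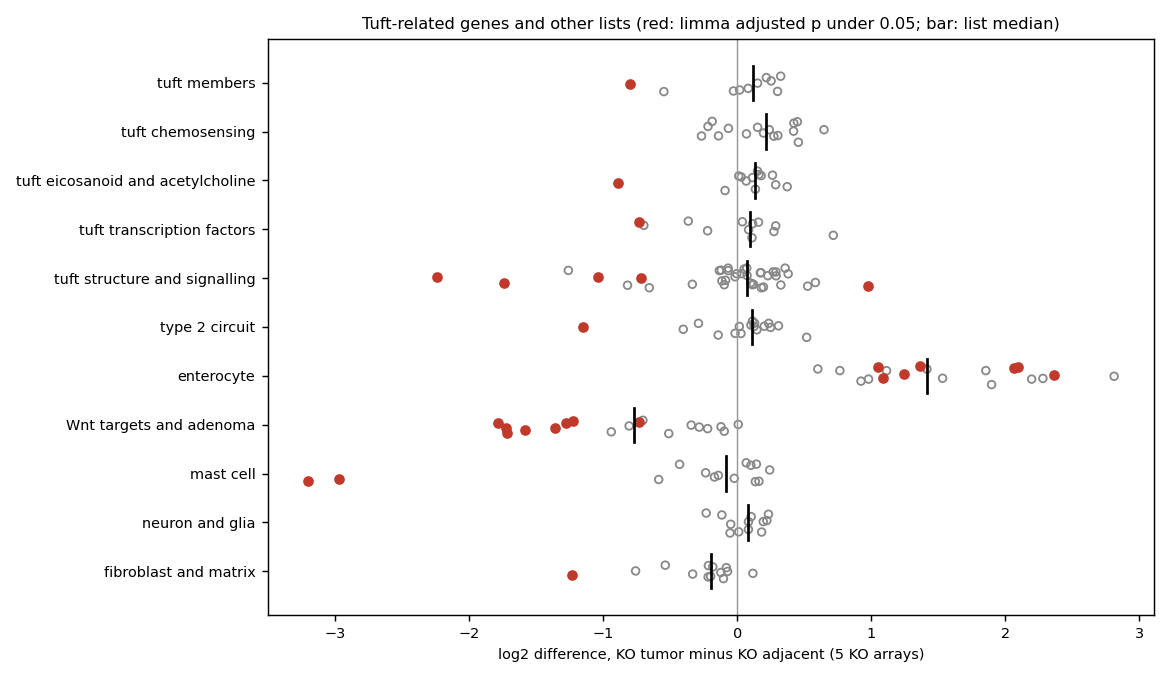
Log2 difference, KO tumor minus KO adjacent, over the 5 KO arrays (x axis), for each gene (circle) of the members and of 10 other lists (rows). Red circles have a limma adjusted p under 0.05 and black bars are list medians. The tuft lists have medians of 0.07 to 0.22, the enterocyte list 1.42 and the Wnt target list -0.77.

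Markers of other cell types moved between the same KO arrays, where 0.557% of all genes rose and 1.29% fell. In the 5-array fit, 7 of 19 enterocyte genes rose (list median 1.42), and 8 of 18 Wnt target and adenoma genes fell (list median -0.77), among them Notum (-1.58) and Lgr5 (-1.28). Of 14 mast cell genes 2 fell, the proteases Mcpt1 (-2.97) and Mcpt2 (-3.20). The list median was -0.08, with 6 genes above 0 and 8 below. The mast cell list mean, which includes these 2 proteases, was 3.80 to 3.89 in KO tumor arrays and 4.32 to 4.35 in KO adjacent arrays. Of 14 neutrophil genes 3 fell, Il1b (-1.18), S100a9 (-0.93) and Ltf (-0.78), with a list median of -0.06. Of 9 Paneth cell genes 2 fell, Pla2g2a (-3.64) and Mmp7 (-1.27), with a list median of -0.91. Of 9 goblet cell genes 1 fell, Agr2 (-2.16), with a list median of -0.13. Of 13 fibroblast and matrix genes 1 fell, Dcn (-1.23), with a list median of -0.20. Fibroblast list means were 4.69 to 4.92 in KO tumor arrays and 5.07 to 5.19 in KO adjacent arrays. Advillin is also expressed in sensory neurons, and of 12 neuron and glia genes 0 were called, with list means of 4.07 to 4.18 in KO tumor and 4.04 to 4.11 in KO adjacent arrays. Of 10 megakaryocyte and erythroid genes, cells that express Gfi1b, 0 were called, with list means of 4.32 to 4.35 in KO tumor and 4.28 to 4.30 in KO adjacent arrays. The part of these other cell types in the Avil difference was not tested.

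By the mean absolute difference between profiles centred on the gene mean, the genes nearest to Dclk1 of 19937 others were Supt3 (0.146), Clcf1 (0.150), Flrt3 (0.159), Sgo2a (0.165) and Tmem203 (0.174 log2 units). The nearest members were Alox5ap, at rank 846 with 0.304, and Il25, at rank 908 with 0.307. Avil was the farthest member from Dclk1, at rank 12547 with 0.535. Some ranks between other members were smaller: of all genes set against Alox5ap, Il17rb had rank 86, Alox5 104 and Trpm5 125. Against Pou2f3, Il25 had rank 120. In reverse, Alox5ap had rank 1128 against Il17rb, 237 against Alox5 and 281 against Trpm5, and Pou2f3 had rank 863 against Il25. The measure is small between genes that vary little. By SD over the arrays, Il17rb lay at percentile 1.26 of all genes, Il25 at 4.34 and Avil at 84.2. The ranks describe 12 arrays of unequal signal.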

How the data were processed

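RNA of laser-microdissected mouse epithelium was prepared with a GeneChip WT Pico kit and biotin label, per the labels' protocols, and gave 12 arrays. The deposited table holds log2 expression values, 1 column per array. Partek and RMA are named per the submitters' processing notes, with no version, and further steps of the authors are not given in the sources used here. Of 35556 probe sets, 21789 had 1 symbol in the platform annotation, 1621 had several and 12146 had none. A check of 21698 probe sets by Entrez identifier changed 0 symbols. Where a gene had several probe sets, the one with the highest mean of all 12 arrays was kept, which gave 19938 genes.

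The 10 arrays with agreeing genotype labels were fitted in 4 groups by limma 3.58.1 under R 4.3.3 (lmFit and eBayes, two-sided, Benjamini-Hochberg adjustment over all genes), and a call is an adjusted p under 0.05. The steps were tested on simulated data. Members and lists were chosen with earlier results of these data known. All members were named with their values on each array, and differences were given where a member passed, had an unadjusted p under 0.05 or did not overlap between groups. From each other list, up to 4 called genes by size were named, or up to 2 with the smallest p where none passed. The 18 lists held 282 genes, 259 of them measured. Weak-signal arrays were defined by a median correlation under 0.7, from earlier results.

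Same-numbered KO and floxed tumor arrays, numbered in the titles, deviated together with correlations of 0.105, 0.121 and 0.347 across genes, so the blocked count is given beside that comparison. The differently numbered pair of KO tumor array 1 and floxed tumor array 2 correlated at 0.246. In the other comparisons correlations of same-numbered pairs ran from -0.129 to 0.0615. Each of those comparisons holds a group of 2 arrays, whose deviations are equal and opposite. Every value there recurs with the other sign, so these correlations say little about a pairing. No label says what a number shares. The alternatives were quantile and scale normalization, leaving out the dimmest 30% of genes, all probe sets, the mean over probe sets, trended and robust variance, array weights, both readings of the conflicting labels, no weak-signal arrays, the replicate block, only the arrays compared and each array left out. Further fits on the KO arrays alone were added after the data were seen.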

Additional observations from a re-analysis of the deposited data

How the results depend on the processing

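Of 115 counts of called members under alternatives, 107 stayed at 0. In KO tumor against floxed tumor, the count moved only without the weak-signal arrays, which leaves 1 floxed tumor array. The log2 differences there were 0.77 for Trpm5 and 0.61 for Alox5. Leaving out 1 of the 10 arrays at a time gave 0 in 4 comparisons and 0 to 1 in KO adjacent against floxed adjacent. The 1 was Avil without floxed tumor replicate 3, beside 24.6% of all genes. In KO tumor against KO adjacent, 1 member, Avil, passed with array weights (limma adjusted p 0.00377), beside 5.23% of all genes. It also passed without the weak-signal arrays or with only the arrays compared (limma adjusted p 0.0470), where 1.85% of all genes passed in the 5 KO arrays. With the KO arrays alone, it passed after quantile normalization (0.0423) and without KO tumor array 1 or 3. It did not pass in the KO arrays alone without the dimmest 30% of genes (0.0510). Over its 31 alternatives the adjusted p of Avil ran from 0.00377 to 1.00. Of 356 single values, 347 kept sign and side of the threshold, 7 passed newly, and 2 reversed, Avil (-0.19) and Alox5 (0.14) in KO adjacent against floxed adjacent with the conflict arrays placed by characteristic; the cause was not tested. With the replicate number as a block, 0 members were called in each comparison, and the genes called were 782 in KO tumor against floxed tumor and 2450, against 1209, in KO adjacent against floxed adjacent. Over all genes, calls ran from 0 (conflict arrays by title) to 5793 (without floxed tumor replicate 3) beside 215 in KO tumor against floxed tumor, from 1 to 4903 beside 1209 in KO adjacent against floxed adjacent, from 0 to 1042 (array weights) beside 4 in KO tumor against KO adjacent, and from 0 to 343 (without floxed tumor replicate 2) beside 1 in floxed tumor against floxed adjacent. The table holds no detection call, so signal over background was not measured.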
